A study of Mus musculus with 24 samples.

Results

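Trp53, which encodes the tumour suppressor p53, and 9 genes that p53 is known to activate were followed in mouse embryonic stem cells (mESCs) in which heme synthesis was inhibited. The genes were chosen by name as the rows of the deposited count table with the symbols Trp53, Mdm2, Cdkn1a, Ccng1, Trp53inp1, Bax, Bbc3, Phlda3, Sesn2 and Zmat3, which are 10 of 23762 symbols in all. All 10 were above the filter on low counts, as were 16067 symbols of the series.

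p53 is a transcription factor that is kept scarce by its own target Mdm2, a ubiquitin ligase that marks it for degradation, and that is stabilised by DNA damage and other stresses. It acts mostly through protein stability, so the Trp53 transcript is not a measure of p53 activity, and the transcripts of its targets are the usual readout. In mESCs p53 is known to promote differentiation, and some of its targets answer to other stress factors as well, such as Sesn2 to ATF4, the factor of the integrated stress response.

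The cells were of the mouse line ES-E14TG2a and carried no other genotype in the labels. Naive cells (2iL) were kept with LIF, the GSK3 inhibitor CHIR99021 at 3 μM and the MEK inhibitor PD0325901 at 1 μM, and cells in transition (EpiLC) received bFGF at 12 ng/ml and activin at 20 ng/ml for 48 hr on fibronectin instead. Either state was taken without inhibitor, with succinylacetone (SA) at 0.5 mM, a compound that blocks the heme enzyme ALAD, for 48 hr (2iL+SA and EpiLC+SA), or with SA and hemin at 10 μM, which supplies heme from outside (2iL+SA+H and EpiLC+SA+H). Each of the 6 groups held 4 libraries of 3' RNA tags, and since it is not stated whether replicates came from separate cultures, the p-values measure the spread between these libraries only.

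The libraries held between 1857964 and 9069538 counts. The libraries 2iL+SA replicate 3 (1857964 counts), EpiLC replicate 3 (2883740) and EpiLC+SA+H replicate 1 (2131987) were shallow and stood apart in several of the genes below, so results that rest on them are also given without them. A list of 14 pluripotency genes was summed, with the naive gene Tfcp2l1 and the transition markers Fgf5, Otx2 and Pou3f1 among them. The sum lay between 2011 and 4327 CPM (counts scaled to 1000000 per library) in every library, and none of the genes was at 0 in any group. Among its members, Sox2 had 602 CPM in EpiLC. Pou5f1 had 10.3 CPM there, in a count from which reads that mapped to several loci had been discarded, and the part of that step in the low value was not tested. The markers Otx2 and Pou3f1 of the transition rose from 14.9 to 590 CPM and from 3.65 to 435 CPM between 2iL and EpiLC (adjusted p = 2.89e-10 and 3.69e-09, edgeR). Summed markers reached at most 381 CPM for fibroblasts, 276 CPM for trophectoderm, 81.2 CPM for primitive endoderm and 39.2 CPM for 2C-like cells in any library. In 2iL the fibroblast, trophectoderm and primitive endoderm sums came mostly from Vim (mean 292 CPM), Tfap2c (189 CPM) and Lama1 (65.8 CPM). In these bulk samples, fewer cells that express a gene and less of its RNA per cell cannot be told apart.

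The level of Trp53 itself varied little. CPM are given after scaling of the libraries by the trimmed mean of M-values. In 2iL the 4 libraries had 62.0, 63.3, 86.7 and 84.8 CPM of Trp53, in EpiLC 50.0, 52.9, 66.2 and 59.8 CPM, and in EpiLC+SA 73.1, 53.2, 84.9 and 63.0 CPM. Group means ran from 52.5 CPM in 2iL+SA+H to 74.2 CPM in 2iL, a ratio of 1.41, and the libraries of every group overlapped those of the next group in that order. No comparison between groups called Trp53 (adjusted p = 0.239 for EpiLC against 2iL, 0.422 for EpiLC+SA against EpiLC and 0.484 for 2iL+SA against 2iL, edgeR's quasi-likelihood test with Benjamini-Hochberg adjustment over all genes). Trp53 lies on chromosome 11 (GRCm38, 69580359 to 69591873). Only the 3' ends of its transcripts were searched for copies, at 95% identity or more. The longest match there was a stretch of 58 bases in the pseudogene Trp53-ps at 96.6% identity.

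**Figure D1:**
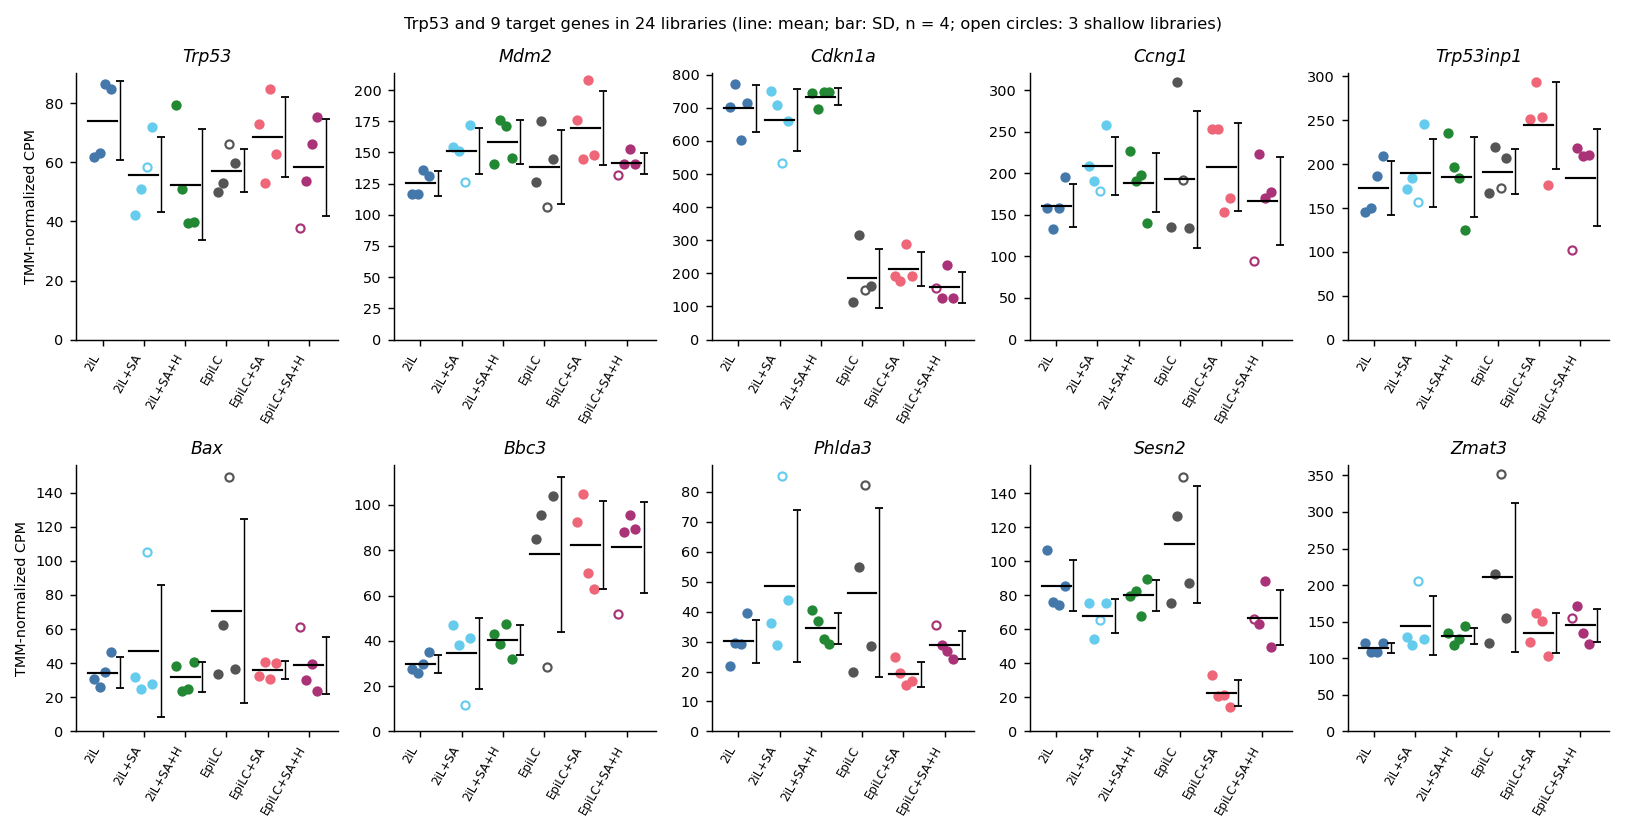
Levels of Trp53 and its 9 targets in TMM-normalized CPM (vertical axis, linear from 0) for the 4 libraries of each of 6 groups; points are libraries, lines means, bars SD, and open circles the 3 shallow libraries. Cdkn1a falls from the 2iL groups (535 to 771 CPM) to the EpiLC groups (113 to 315 CPM), and Sesn2 has its 4 lowest libraries in EpiLC+SA (14.3 to 33.3 CPM).

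The promoter windows of the targets were read to show what lies in front of the genes whose values follow. Windows of 300 bases around RefSeq transcription starts on GRCm38.p6 (250 before and 50 after) were on hand for 8 of the 10 genes, 11 windows in all, and Trp53inp1 and Zmat3 had none. The p53 half-site, the decamer that one pair of p53 subunits contacts, was searched on both strands, and pairs of half-sites were searched with spacers of 0 to 3 bases and up to 2 mismatches, none of them in the C and G of the cores. An exact half-site was in 8.36% of all 32851 windows, a pair with up to 2 mismatches in 1.35% and a pair with up to 1 mismatch in 0.219%. The first window of Cdkn1a held a pair with 1 mismatch and no spacer from 51 bases before the start (chr17:29090928-29090947) and a further half-site from 73 bases before it. Ccng1 held a pair with 1 mismatch from 195 bases before its start (chr11:40755462-40755481, read on the minus strand) and Bax a pair with 2 mismatches and a spacer of 1 base from 201 bases before its start (chr7:45467079-45467099, minus strand). Trp53 and Mdm2 held a single half-site each, and the windows of Bbc3, Phlda3 and Sesn2 and the second window of Cdkn1a held none of these letters, which says nothing of sites elsewhere. The windows of Bbc3 and Phlda3 matched the start of 0 annotated transcripts of these genes. The Bbc3 starts used (16309583 to 16310431) lie inside the annotated gene, which begins at 16308393. That of Phlda3 (135766085) lies shortly before the annotated start (135766119). The windows of Cdkn1a, Ccng1 and Bax are shown for their pairs and that of Sesn2 as the target with the largest response to SA, each from 5′ to 3′ along the transcript with half-sites and pairs in capitals.
Cdkn1a, chr17:29090729-29091028, plus strand: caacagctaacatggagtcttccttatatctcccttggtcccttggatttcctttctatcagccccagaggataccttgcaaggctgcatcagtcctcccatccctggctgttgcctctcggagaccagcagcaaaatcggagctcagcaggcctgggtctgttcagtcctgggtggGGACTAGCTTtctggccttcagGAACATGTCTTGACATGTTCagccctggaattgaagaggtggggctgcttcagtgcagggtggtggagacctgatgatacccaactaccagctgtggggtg
Ccng1, chr11:40755237-40755536, minus strand: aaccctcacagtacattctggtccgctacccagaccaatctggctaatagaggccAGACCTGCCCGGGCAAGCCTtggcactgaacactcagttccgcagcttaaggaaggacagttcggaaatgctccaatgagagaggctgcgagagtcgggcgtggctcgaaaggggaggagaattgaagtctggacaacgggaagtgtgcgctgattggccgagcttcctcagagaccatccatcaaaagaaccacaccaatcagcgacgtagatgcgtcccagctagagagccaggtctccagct
Bax, chr7:45466849-45467148, minus strand: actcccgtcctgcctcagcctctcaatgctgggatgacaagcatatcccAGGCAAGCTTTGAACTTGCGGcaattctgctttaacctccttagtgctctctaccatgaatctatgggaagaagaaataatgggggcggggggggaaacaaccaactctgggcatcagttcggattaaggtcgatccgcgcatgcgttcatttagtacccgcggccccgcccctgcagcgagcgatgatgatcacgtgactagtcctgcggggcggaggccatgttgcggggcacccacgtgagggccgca
Sesn2, chr4:132510407-132510706, minus strand: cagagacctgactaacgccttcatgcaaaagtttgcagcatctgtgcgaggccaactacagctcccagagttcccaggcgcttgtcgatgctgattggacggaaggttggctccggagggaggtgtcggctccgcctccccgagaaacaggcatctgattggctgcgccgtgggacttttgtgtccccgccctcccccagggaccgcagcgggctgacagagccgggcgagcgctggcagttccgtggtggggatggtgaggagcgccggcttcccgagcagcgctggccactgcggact

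Entry into the transition was compared first, to show how the targets move when no inhibitor is present. Of the 10 genes, 2 were higher and 1 was lower in EpiLC than in 2iL, where 15% of all genes tested were higher and 13.4% lower at an adjusted p under 0.05. The median log2 fold change was 0.30 over the 10 genes and 0.00 over all genes. Cdkn1a encodes p21, an inhibitor of cyclin-dependent kinases that holds cells in G1 (chromosome 17, 29090976 to 29100727). Its 2iL libraries had 703, 771, 603 and 716 CPM and its EpiLC libraries 113, 315, 151 and 162 CPM. All EpiLC libraries lay below all 2iL libraries, with replicate 2 the highest of the group. The means were 698 ± 70.0 CPM (SD, n = 4 libraries) in 2iL and 185 ± 89.0 CPM (SD, n = 4 libraries) in EpiLC. The log2 fold change was -1.91 (standard error, SE, of 0.24, adjusted p = 1.38e-06, edgeR) and -1.83 without the 3 shallow libraries. Cdkn1a overlaps the antisense gene AC167363.2, and with no strand setting of the count stated, reads of the 2 genes could not be separated.

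Of the genes of apoptosis, Bbc3 rose and Bax did not pass the test. Bbc3, which encodes PUMA, a BH3-only protein that sets off apoptosis at mitochondria, had 27.7, 25.9, 29.9 and 35.1 CPM in 2iL and 85.1, 95.6, 28.3 and 104 CPM in EpiLC. The shallow EpiLC replicate 3 lay within the 2iL range and the other 3 EpiLC libraries above it. Bbc3 was higher in EpiLC with a log2 fold change of 1.41 (SE 0.33, adjusted p = 0.00181, edgeR), and of 1.68 without the 3 shallow libraries. Bax, the effector that opens the outer mitochondrial membrane, had 30.7, 26.0, 34.6 and 46.8 CPM in 2iL and 33.5, 62.6, 149 and 36.8 CPM in EpiLC, with the highest value in the shallow replicate 3. Its log2 fold change was 1.01 (SE 0.43, adjusted p = 0.0836, edgeR) and 0.36 without the 3 shallow libraries, and without EpiLC replicate 1 or 4 the adjusted p was 0.0392 or 0.0460. In the 3' ends of its transcripts, the only part searched, a stretch of 194 bases of Bax is identical to the overlapping gene Gm45808.

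Zmat3, which encodes an RNA-binding zinc finger protein that alters splicing, had 120, 108, 109 and 121 CPM in 2iL and 121, 216, 352 and 155 CPM in EpiLC. The EpiLC libraries lay above the 2iL libraries, EpiLC replicate 1 by a margin that vanishes on rounding, and the shallow replicate 3 was the highest. The log2 fold change was 0.87 (SE 0.24, adjusted p = 0.00697, edgeR). Without EpiLC replicate 3 it was 0.52 and the call was lost (adjusted p = 0.0658), while without all 3 shallow libraries it was 0.51 and the call was kept (adjusted p = 0.0202). Phlda3, an inhibitor of AKT signalling, stood at a log2 fold change of 0.60 (adjusted p = 0.183, edgeR) that passed only without EpiLC replicate 1 (0.86, adjusted p = 0.0444). The feedback genes Mdm2 (0.15), Ccng1 (0.26), which encodes cyclin G1, and Trp53inp1 (0.15), which encodes a nuclear and autophagy protein induced by stress, were not called, nor was Sesn2 (0.35, adjusted p = 0.268, edgeR). At least 1 EpiLC library of each of them fell within the 2iL range.

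SA given during the transition was compared next. None of the 10 genes rose and 3 fell in EpiLC+SA against EpiLC, where 12.1% of all genes were higher and 15.8% lower. The median log2 fold change was 0.09 over the 10 genes and close to 0 over all genes. The largest change was that of Sesn2, which encodes sestrin 2, an inhibitor of mTORC1 signalling that senses leucine and is induced by p53 and by ATF4. Sesn2 had 75.8, 127, 150 and 87.5 CPM in EpiLC, 33.3, 21.1, 21.7 and 14.3 CPM in EpiLC+SA, and 66.3, 63.0, 88.6 and 49.9 CPM in EpiLC+SA+H. Every EpiLC+SA library lay below every library of the 5 other groups. The means were 110 ± 34.4 CPM (SD, n = 4 libraries) in EpiLC, 22.6 ± 7.90 CPM (SD, n = 4 libraries) in EpiLC+SA and 66.9 ± 16.1 CPM (SD, n = 4 libraries) in EpiLC+SA+H. The log2 fold change with SA was -2.27 (SE 0.25, adjusted p = 2.94e-07, edgeR), which ranked 47 among all genes by p, and was -2.09 without the 3 shallow libraries. Sesn2 (chromosome 4, 132492032 to 132510501) overlaps Gm12981 on the same strand, which had between 0 and 15 counts in any library.

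Phlda3 had 19.8, 54.8, 82.1 and 28.4 CPM in EpiLC and 24.8, 19.4, 15.4 and 16.9 CPM in EpiLC+SA. The groups overlapped, since EpiLC replicate 1 lay among the EpiLC+SA libraries, and the highest value was that of the shallow EpiLC replicate 3. Its log2 fold change was -1.25 (SE 0.34, adjusted p = 0.00765, edgeR). Without the 3 shallow libraries it was -0.83 (adjusted p = 0.0136) and without EpiLC replicate 3 alone -0.87 (adjusted p = 0.0457). Zmat3 had 123, 162, 152 and 103 CPM in EpiLC+SA, a log2 fold change of -0.64 (SE 0.24, adjusted p = 0.0456, edgeR). That call rested on the shallow EpiLC replicate 3, as the change was -0.31 without it (adjusted p = 0.290) and -0.28 without all 3 shallow libraries (adjusted p = 0.206). It was also lost without EpiLC replicate 2 (adjusted p = 0.0746) or without EpiLC+SA replicate 1 (0.0935), 3 (0.0558) or 4 (0.142), and in a fit of the 2 groups alone (0.125).

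The remaining targets did not pass the test with SA. Cdkn1a had 193, 176, 288 and 192 CPM in EpiLC+SA, within the range of EpiLC, at a log2 fold change of 0.20 (SE 0.24, adjusted p = 0.572, edgeR). It passed only without EpiLC replicate 2, where the change was 0.56 (adjusted p = 0.0492), while without EpiLC+SA replicate 3 it was 0.01. Mdm2 had 126, 176, 106 and 145 CPM in EpiLC and 176, 144, 208 and 148 CPM in EpiLC+SA, at a log2 fold change of 0.29 (SE 0.16, adjusted p = 0.187, edgeR). Ccng1 had 136, 310, 192 and 134 CPM in EpiLC and 254, 253, 153 and 171 CPM in EpiLC+SA. The Ccng1 groups overlapped throughout, at a log2 fold change of 0.11 (SE 0.26, adjusted p = 0.784, edgeR). Trp53inp1 had 167, 220, 172 and 207 CPM in EpiLC and 252, 294, 254 and 176 CPM in EpiLC+SA, with 3 of the 4 SA libraries above all controls and a log2 fold change of 0.35 (SE 0.23, adjusted p = 0.253, edgeR). Bbc3, at 92.4, 105, 69.9 and 63.0 CPM in EpiLC+SA, stood at a log2 fold change of 0.07 (adjusted p = 0.903, edgeR). Bax, at 32.5, 40.8, 30.6 and 40.0 CPM, had one of -0.95 (SE 0.43, adjusted p = 0.105, edgeR), which was -0.30 without the 3 shallow libraries.

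**Figure D2:**
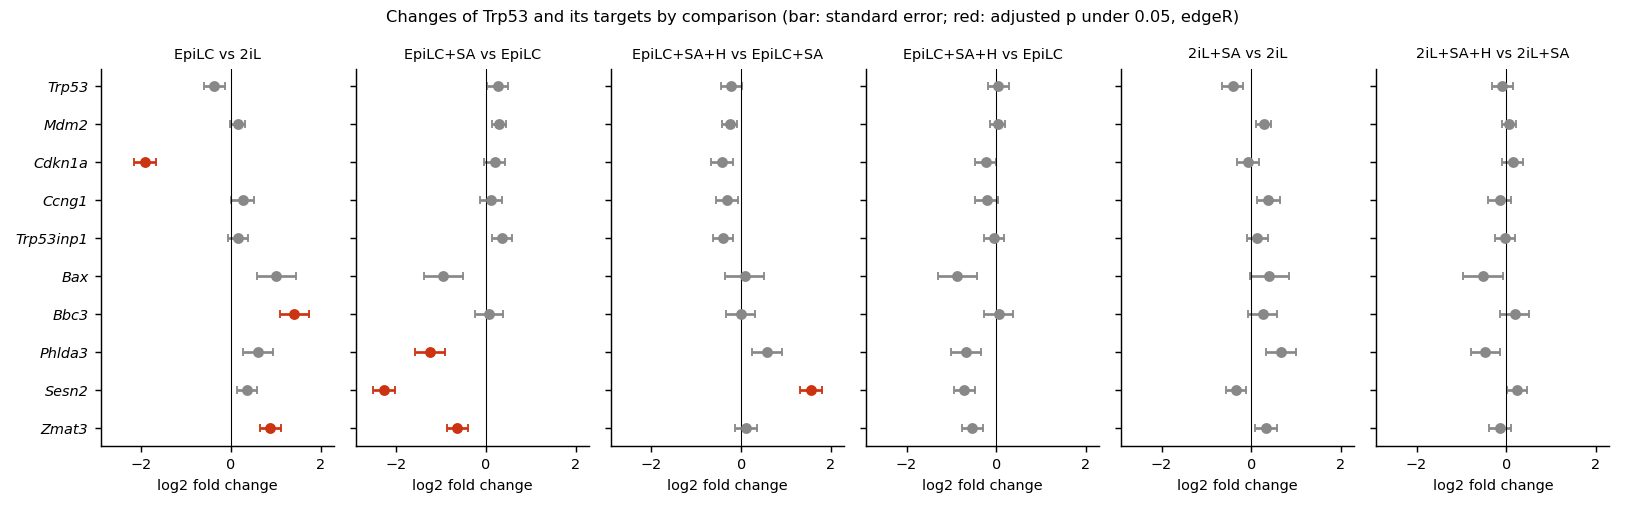
Log2 fold changes (horizontal axis) of Trp53 and its 9 targets (rows) in 6 comparisons (panels) with their standard errors as bars, n = 4 libraries a group; red points passed an adjusted p of 0.05 in edgeR's quasi-likelihood test. Cdkn1a stands at -1.91 in EpiLC against 2iL, Sesn2 at -2.27 with SA and at 1.56 with hemin added, and no point is red in the 2 panels of naive cells.

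Hemin added to SA in the transition tested whether heme from outside moves the genes back. Sesn2 was the only 1 of the 10 genes called, against 10.5% of all genes higher and 5.95% lower in EpiLC+SA+H than in EpiLC+SA. All 4 of its EpiLC+SA+H libraries lay above all EpiLC+SA libraries, at a log2 fold change of 1.56 (SE 0.24, adjusted p = 6.41e-05, edgeR) that was 1.57 without the 3 shallow libraries. Phlda3 had 35.3, 28.7, 27.0 and 24.1 CPM with hemin, a log2 fold change of 0.58 (SE 0.34, adjusted p = 0.263, edgeR). Cdkn1a had 155, 126, 224 and 126 CPM with hemin (log2 fold change -0.43, adjusted p = 0.229), Trp53inp1 102, 218, 209 and 210 CPM (-0.40, adjusted p = 0.240) and Mdm2 132, 140, 153 and 140 CPM (-0.26, adjusted p = 0.299), all by edgeR and all overlapping EpiLC+SA. The low Trp53inp1 library was the shallow replicate 1.

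Set against EpiLC without inhibitor, the cells with SA and hemin had 0 of the 10 genes called by edgeR and by DESeq2. Of all 16067 genes tested, edgeR called 0.0622% in either direction and DESeq2 called 128. At an unadjusted p under 0.05 in edgeR there were 2 of the 10, Sesn2 (log2 fold change -0.71, SE 0.23, adjusted p = 0.266) and Zmat3 (-0.53, SE 0.24, adjusted p = 0.439). The mean of Sesn2 with hemin lay between those of EpiLC+SA and EpiLC. At that level 1674 of 16067 genes passed, or 10.4%. The comparisons of the EpiLC groups share libraries and are not independent of each other.

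In naive cells none of the 10 genes passed with SA or with hemin. For 2iL+SA against 2iL, 0 were called by edgeR and by DESeq2. Of all 16067 genes tested, edgeR called 0.0498% and DESeq2 called 321. At an unadjusted p under 0.05 in edgeR there were 0 of the 10, beside 12.7% of all genes. Cdkn1a had 751, 710, 535 and 661 CPM in 2iL+SA (log2 fold change -0.07, SE 0.24, adjusted p = 0.935, edgeR) and Sesn2 75.5, 54.5, 65.5 and 75.7 CPM (-0.34, SE 0.23, adjusted p = 0.576), and both overlapped 2iL. Phlda3 had the largest change, 0.66 (SE 0.33, adjusted p = 0.415, edgeR), from values of 36.0, 28.9, 85.3 and 43.8 CPM in which the shallow replicate 3 was highest, and without that library it was 0.27 (adjusted p = 0.821). The same library had 105 CPM of Bax, 205 CPM of Zmat3 and 11.6 CPM of Bbc3, against 24.6 to 31.8, 119 to 129 and 38.4 to 47.0 CPM in the other 3 libraries of 2iL+SA. For 2iL+SA+H against 2iL+SA, 0 of the 10 genes were called by either tool, beside 0% of all genes in edgeR and 1 gene in DESeq2. In edgeR 0 of the 10 had an unadjusted p under 0.05, beside 4.59% of all genes. For 2iL+SA+H against 2iL, 0 were called by either tool, beside 0.00622% of all genes in edgeR and 6 genes in DESeq2. In edgeR 2 of the 10 had an unadjusted p under 0.05, beside 4.88% of all genes. Mdm2 at 141, 176, 171 and 146 CPM lay above all 2iL libraries (117, 117, 136 and 131 CPM; log2 fold change 0.34, SE 0.16, adjusted p = 1), and Trp53 stood at -0.50 on that scale (SE 0.23, adjusted p = 0.991).

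Whether the effect of SA differed between the 2 states was tested as an interaction. Of the 10 genes, 2 passed beside 14.3% of all genes, and both differences were negative. The log2 fold change with SA was -2.27 in EpiLC and -0.34 in 2iL for Sesn2. For Phlda3 it was -1.25 in EpiLC and 0.66 in 2iL. The log2 effect of SA on Sesn2 in EpiLC minus that in 2iL was -1.94 (SE 0.33, adjusted p = 4.06e-04, edgeR) that was -1.78 without the 3 shallow libraries. For Phlda3 the difference was -1.91 (SE 0.48, adjusted p = 0.00903, edgeR). It was -1.12 without the 3 shallow libraries (adjusted p = 0.0305), which hold the highest Phlda3 value of both 2iL+SA and EpiLC. The difference for Zmat3 was -0.97 (adjusted p = 0.0522, edgeR) and passed without 2iL+SA replicate 2 (0.0452), EpiLC replicate 1 (0.0150) or 4 (0.0348) or EpiLC+SA replicate 2 (0.0483), while without the 3 shallow libraries it was -0.42 (adjusted p = 0.242). For Cdkn1a and Mdm2 the differences were 0.27 and 0.02 (adjusted p = 0.632 and 0.978, edgeR). The effect of hemin differed between the states for Sesn2 alone among the 10 genes, by 1.32 (SE 0.33, adjusted p = 0.0166, edgeR), beside 6.33% of all genes.

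Regulators of p53 were read next. The counts of this and the following lists stand beside 12.1% of all genes higher and 15.8% lower with SA, 15% higher and 13.4% lower in EpiLC against 2iL, and 10.5% higher and 5.95% lower with hemin added. Summed marker lists moved with SA in the same libraries. The pluripotency sum went from between 2663 and 4327 CPM in EpiLC to between 2011 and 2376 CPM in EpiLC+SA. Of its 14 genes, 2 rose and 5 fell. Its transition markers Otx2 and Pou3f1 went from 590 to 108 CPM and from 435 to 36.4 CPM. Its naive gene Tfcp2l1 went from 36.5 to 165 CPM. The fibroblast sum went from between 73.0 and 94.0 to between 125 and 208 CPM. Vim made up most of it, at 70.6 and 141 CPM. Thy1 had 2.83 and 11.5 CPM, while Dcn had 3.25 and 0.31 CPM and was not called. Of the 6 fibroblast genes tested, 2 rose, Vim and Thy1, and 0 fell. The part of these shifts in the SA results was not tested. Of 27 regulators measured, 4 rose and 6 fell in EpiLC+SA against EpiLC, with a median log2 fold change of -0.36. Ppm1d encodes WIP1, a phosphatase that switches p53 off and is itself a p53 target, and it fell from 30.4 to 9.34 CPM with SA (log2 fold change -1.71, SE 0.25, adjusted p = 2.16e-05, edgeR) and rose to 27.5 CPM with hemin. Usp10, a deubiquitinase of p53, fell from 130 to 55.6 CPM (adjusted p = 5.94e-06) and rose to 118 CPM with hemin (adjusted p = 5.09e-05, edgeR). Ppp1r13l, which encodes the p53 inhibitor iASPP, fell from 8.93 to 2.78 CPM (adjusted p = 3.08e-04) and rose to 6.77 CPM (adjusted p = 0.00957, edgeR). In each of these 3 genes the EpiLC+SA libraries lay below all libraries of both other EpiLC groups. Among the same regulators 5 were higher and 1 was lower in EpiLC than in 2iL, but only 1 was higher without 2iL replicate 1 or EpiLC replicate 2, 2 without 2iL replicate 3, and 3 without 2iL replicate 2 or 4, and 0 were lower without 2iL replicate 3 or 4, EpiLC replicate 3 or the 3 shallow libraries. Trp53bp1 had 52.5 and 84.8 CPM in 2iL and EpiLC (adjusted p = 0.0114; 0.0834 without EpiLC replicate 2) and Trp73 3.61 and 8.99 CPM (adjusted p = 0.0178; 0.1105 without EpiLC replicate 2 and 0.0556 without 2iL replicate 1, edgeR).

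Other targets with roles in arrest and feedback numbered 18, of which 2 rose and 3 fell with SA in the transition, at a median of 0.16. Ppm1d, counted among the regulators above, is 1 of the 3 that fell. Gadd45b, a stress protein that also answers to TGF-β and NF-κB, rose from 8.67 to 80.2 CPM (log2 fold change 3.22, SE 0.46, adjusted p = 1.70e-05, edgeR) and fell to 15.8 CPM with hemin (adjusted p = 6.43e-04). Its relative Gadd45a had 36.0, 35.4 and 40.9 CPM in EpiLC, EpiLC+SA and EpiLC+SA+H, after a rise from 5.25 CPM in 2iL (adjusted p = 9.29e-05, edgeR). Trp53cor1 is lincRNA-p21, a long noncoding RNA transcribed next to Cdkn1a. It had 19, 9, 36 and 41 counts in EpiLC, 2, 0, 0 and 1 counts in EpiLC+SA and 4, 10, 20 and 11 counts in EpiLC+SA+H (adjusted p = 2.16e-05 with SA and 0.00344 with hemin, edgeR). Summed over libraries this was 34.8 times more in EpiLC than in EpiLC+SA after scaling for depth, with an exact 95% interval of 11.6 to 171 for counting error only. Cdkn1a itself, its neighbour, stood at 185 and 212 CPM in the same groups. Ptp4a3, a phosphatase, rose from 17.4 to 44.5 CPM between 2iL and EpiLC (adjusted p = 6.31e-04, edgeR).

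Of 16 other genes listed as targets with roles in apoptosis, 6 rose and 2 fell with SA in the transition, at a median of 0.63. Whether p53 acts on each of them in these cells was not tested. Trp53inp2, an autophagy protein related to Trp53inp1, rose from 10.3 to 42.7 CPM (log2 fold change 2.01, SE 0.34, adjusted p = 8.59e-05, edgeR) and fell to 13.1 CPM with hemin (adjusted p = 9.05e-04). Ei24 rose from 50.4 to 112 CPM (adjusted p = 0.00177, edgeR). Bcl2l11 encodes the BH3-only protein BIM and moved the other way, from 74.8 CPM in EpiLC to 25.1 CPM with SA (adjusted p = 2.55e-05) and 62.4 CPM with hemin (adjusted p = 3.74e-04, edgeR). Pmaip1, which encodes the BH3-only protein NOXA, rose from 2.60 CPM in 2iL to 32.1 CPM in EpiLC (log2 fold change 3.63, SE 0.30, adjusted p = 1.83e-09, edgeR) and had 28.3 CPM with SA.

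Of 13 BCL2 family genes other than Bax and Bbc3, 7 were higher and 1 was lower in EpiLC than in 2iL, at a median of 0.82, and 4 were higher without 2iL replicate 2 or EpiLC replicate 4, and 2 lower without EpiLC replicate 3 or the 3 shallow libraries. With SA 0 of them rose and 3 fell, at a median of -0.41. Those 3 were Bcl2l11, the BH3-only gene Bmf, which fell from 6.82 to 1.58 CPM (adjusted p = 0.00110) and rose to 8.89 CPM with hemin (adjusted p = 3.63e-04), and the anti-apoptotic gene Mcl1, which fell from 660 to 441 CPM (adjusted p = 0.0170, edgeR). The Mcl1 call was lost without EpiLC replicate 1 (adjusted p = 0.0589) or 4 (0.0538) or EpiLC+SA replicate 3 (0.0529) or 4 (0.0540). Pmaip1, Bcl2l11 and Bid stand in this list and in that of apoptosis targets.

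Of 22 targets in DNA repair and metabolism, 6 rose and 5 fell with SA, at a median of -0.04, and 3 rose without EpiLC replicate 3. Gpx1, a peroxidase that clears hydrogen peroxide, rose from 491 to 1018 CPM (adjusted p = 1.50e-04) and fell to 587 CPM with hemin (adjusted p = 0.00352, edgeR). Pank1, which makes a precursor of coenzyme A, fell from 25.4 to 9.81 CPM (adjusted p = 4.04e-04) and rose to 27.4 CPM with hemin (adjusted p = 3.17e-04, edgeR). Ddit4, an mTORC1 inhibitor, fell from 217 to 63.1 CPM (adjusted p = 9.10e-04, edgeR), and Tap1, a peptide transporter for antigen presentation, rose from 3.50 CPM in 2iL to 16.7 CPM in EpiLC (adjusted p = 1.77e-05).

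Because Sesn2 is also an ATF4 target, the genes of that response were read beside it. Of 26 measured ATF4 and CHOP response genes, Sesn2 and Ddit4 included, 0 rose and 15 fell in EpiLC+SA against EpiLC, at a median log2 fold change of -1.06. The authors reported more phosphorylated EIF2α, a translation factor, and less translation with SA. They took both as activation of the integrated stress response. Transcript counts measure neither. Chac1, a glutathione-degrading enzyme, fell from 58.4 to 2.06 CPM (log2 fold change -4.77, SE 0.60, adjusted p = 3.87e-06, edgeR) and rose to 11.01 CPM with hemin (adjusted p = 0.00692). Stc2, a secreted glycoprotein, fell from 15.1 to 1.00 CPM (adjusted p = 7.96e-06, edgeR), and Trib3, a pseudokinase that feeds back on ATF4, fell from 62.7 to 13.3 CPM (adjusted p = 3.65e-05, edgeR). With hemin added, 3 of the 26 genes rose and 2 fell, at a median close to 0, and 0 fell without EpiLC+SA replicate 4 or EpiLC+SA+H replicate 1 and 1 without EpiLC+SA+H replicate 4. Against EpiLC, the cells with SA and hemin had a median of -1.03 over these genes, with 0 called by edgeR and 18 at an unadjusted p under 0.05, beside 10.4% of all genes. The 10 p53 genes had a median of -0.22 in that comparison, with 2 at an unadjusted p under 0.05. Markers of the state moved in the same libraries: Fgf5 had 32.7 CPM in EpiLC, 0.35 CPM in EpiLC+SA and 17.1 CPM in EpiLC+SA+H, and the naive gene Tfcp2l1 had 36.5, 165 and 65.6 CPM, and their part in the results on Sesn2 and its list was not tested.

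**Figure D3:**
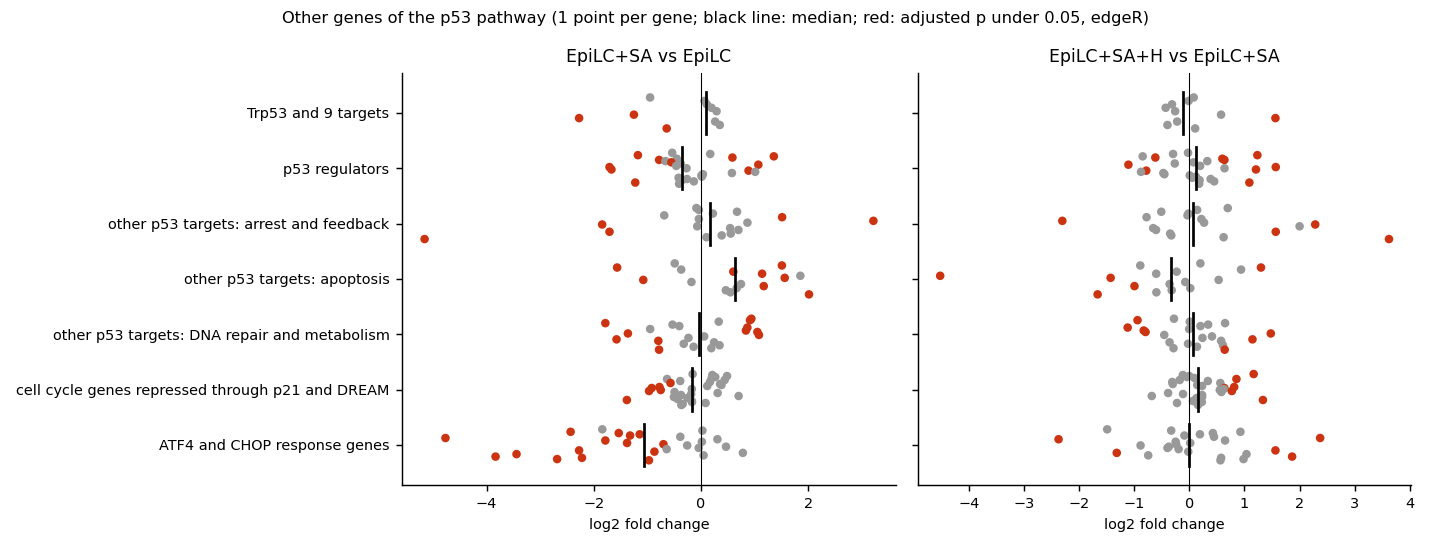
Log2 fold changes (horizontal axes, different ranges) of single genes (points) in 7 gene lists (rows) for SA in the transition (left) and hemin added to SA (right), n = 4 libraries a group; black lines are medians and red points passed an adjusted p of 0.05 in edgeR. The ATF4 and CHOP list has the lowest median with SA, -1.06, against 0.09 for Trp53 and its 9 targets.

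p21 acts on the cell cycle through the DREAM complex, and 32 cell cycle genes repressed in that way were counted with the other CDK inhibitors. In EpiLC against 2iL, where Cdkn1a fell, 1 of the 32 genes was higher and 1 lower, at a median of -0.04: Top2a, the topoisomerase of dividing cells, rose from 1564 to 2578 CPM (adjusted p = 0.00615) and Birc5, which encodes survivin, fell from 339 to 203 CPM (adjusted p = 0.0103, edgeR). Without the 3 shallow libraries 4 were higher and 4 lower, without EpiLC replicate 3 alone 2 were higher, and without EpiLC replicate 1 there were 2 lower. With SA, where Cdkn1a was not called, 0 rose and 6 fell, at a median of -0.18, and 1 rose without EpiLC replicate 1. Without the 3 shallow libraries 1 rose and 9 fell. The mitotic kinase gene Plk1 fell from 372 to 143 CPM (log2 fold change -1.38, SE 0.21, adjusted p = 3.43e-05, edgeR) and rose to 361 CPM with hemin (adjusted p = 9.96e-05). The kinesin gene Kif11 fell from 106 to 54.2 CPM (adjusted p = 1.59e-04) and rose to 92.2 CPM (adjusted p = 0.00252, edgeR), and E2f1, a factor of S phase entry, fell from 63.2 to 33.4 CPM (adjusted p = 9.77e-04, edgeR).

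Of 6 other CDK inhibitor genes, 2 rose with SA in the transition and 0 fell, and 1 rose without EpiLC replicate 3 or 4 or EpiLC+SA replicate 3 or 4. Cdkn2a, 1 of the 2, was also counted among the p53 regulators above. Cdkn2a, whose locus encodes p16 and the MDM2 inhibitor ARF from overlapping exons that a gene count does not separate, rose from 89.1 to 230 CPM (log2 fold change 1.36, SE 0.32, adjusted p = 0.00254, edgeR) with all EpiLC+SA libraries above all EpiLC libraries, and had 127 CPM with hemin (adjusted p = 0.0664; 0.0298 without EpiLC+SA+H replicate 2 and 0.0133 without the 3 shallow libraries). Cdkn2d rose from 7.07 to 13.2 CPM (adjusted p = 0.0493, edgeR), a call that was lost without any 1 of EpiLC replicates 2 to 4 or EpiLC+SA replicates 1, 3 and 4 (adjusted p from 0.0643 to 0.152). Cdkn1c, which encodes p57, of the same CIP/KIP family as p21, rose from 4.77 to 52.7 CPM between 2iL and EpiLC (log2 fold change 3.46, SE 0.41, adjusted p = 6.25e-07, edgeR), where Cdkn1a fell.

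Finally, genes with the most similar pattern were sought for 4 of the genes, by the root mean square difference of centred log2 CPM over the 24 libraries among 6444 genes with a mean of at least 20 CPM. For Ccng1 the closest gene was Trp53inp1 (0.26 log2 units), followed by Ckap2 (0.30), a p53 target that binds microtubules, and Copg1 (0.31), where Ccng1 itself varied by 0.38. The closest to Cdkn1a were Mpzl2 (0.34), Pbxip1 (0.38) and Nfatc2ip (0.39), against a standard deviation of Cdkn1a itself of 1.06 log2 units. For Mdm2 they were Kif1b (0.18), Cmip (0.18) and Ints2 (0.19), where Mdm2 itself varied by only 0.22, and for Trp53 Xpo6 (0.28), Eny2 (0.28) and 2610305D13Rik (0.29), where Trp53 varied by 0.36.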

How the data were processed

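The analysis began from 1 count table of all 24 libraries. The authors made 3' libraries, aligned single-end reads to mm10 with HISAT2, kept uniquely mapped reads and deposited whole-number counts per gene symbol from HTSeq 2.7.14, without pooling. The annotation and strand setting are not given in the sources used here.

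Genes were filtered with edgeR's filterByExpr (minimum count 5; 16067 of 23762 kept), normalized by TMM and fitted in 1 robust quasi-likelihood model of the 6 groups (edgeR 4.0.16, limma 3.58.1, R 4.3.3). Adjustment followed Benjamini and Hochberg across every gene tested, with calls under 0.05, in 9 comparisons, 2 of them differences between states. The SE of a log2 fold change is its size over the square root of F. The code was tested on simulated data. CPM were not divided by length. Tests compare levels within a gene, while the marker sums add CPM of different genes.

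The 10 genes and all lists were chosen with earlier results of these data known. From each pathway list, up to 3 genes with the smallest adjusted p for SA in the transition and up to 2 for EpiLC against 2iL are named, and marker lists are given as sums with a few of their genes. The 3 most similar genes are given for Trp53, Mdm2, Cdkn1a and Ccng1. Positions are from GENCODE vM21 (GRCm38) and promoter windows from RefSeq (GRCm38.p6), matched by symbol. Alternatives were DESeq2 (1.42.0), DESeq2 size factors in edgeR, other filters (none, or a minimum count of 20), fits of only the groups compared, a replicate block, and leaving out single libraries or the 3 shallow ones. Figures were drawn with matplotlib 3.10.9.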

Additional observations from a re-analysis of the deposited data

Results flagged for a closer look

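In groups of 4 libraries, a single library stood far from the other 3 by Dixon's test in 5 of the 60 sets of values of the 10 genes, where chance gives about 1 in 20. Cdkn1a had 695 CPM in 2iL+SA+H replicate 2 against 743 to 748 CPM in the others, and 288 CPM in EpiLC+SA replicate 3 against 176 to 193 CPM. Trp53inp1 had 102 CPM in the shallow EpiLC+SA+H replicate 1 against 209 to 218 CPM. In the shallow 2iL+SA replicate 3, Bax had 105 CPM against 24.6 to 31.8 CPM and Zmat3 205 CPM against 119 to 129 CPM. Of the 5 sets, 3 hold a shallow library, and the part of depth in these values was not tested.

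Tests of the difference between states passed for 3 values. The log2 effect of SA in EpiLC minus that in 2iL was -1.94 for Sesn2 and -1.91 for Phlda3, and that of hemin was 1.32 for Sesn2.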

How the results depend on the processing

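Across 90 pairs of gene and comparison for the 10 genes, 1489 of 1510 alternative values kept their side of the threshold, 8 lost the call and 13 gained one. Of the 1489, 81 uncalled values changed sign, while 0 called values did. The number of genes called in EpiLC against 2iL was 3, and it ranged from 2 to 5 with each library left out in turn. It was 5 without EpiLC replicate 1 and 4 with DESeq2, where Bax passed (adjusted p = 0.0466). For SA in the transition the number was 3 and ranged from 2 to 3 with single libraries left out. Without EpiLC replicate 2 it stayed at 3, as Zmat3 was lost and Cdkn1a gained. The test of a difference in SA effect called 2 genes, and 3 with DESeq2, its size factors, a minimum count of 20 or without the 3 shallow libraries, where Bbc3 joined (-0.73, adjusted p = 0.0340) in place of Zmat3. Whether replicate numbers pair the libraries was not settled. Deviations from the group mean in same-numbered libraries correlated at 0.06 to 0.16 for EpiLC+SA against EpiLC. The correlations were -0.07 to 0.31 for 2iL+SA against 2iL and -0.26 to 0.03 for 2iL+SA+H against 2iL+SA. For EpiLC+SA+H they were -0.19 to 0.40 against EpiLC and -0.07 to 0.23 against EpiLC+SA. They were -0.13 to 0.05 for EpiLC against 2iL and -0.26 to 0.08 for 2iL+SA+H against 2iL. A fit with the replicate block called 3, 3 and 1 of the 10 genes in the first 3 comparisons, as without it, and moved the count over all genes for 2iL+SA against 2iL from 8 to 39. Between pairs of groups the SE was largest for Bax (0.43 to 0.44) and smallest for Mdm2 (0.16).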
